A study of Mus musculus with 6 samples.

Results

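The genes described here are 10 members of the matrix metalloproteinase (MMP) system that were picked by name, namely the proteases Mmp2, Mmp3, Mmp8, Mmp12, Mmp13, Mmp14 and Mmp19 and their tissue inhibitors Timp1, Timp2 and Timp3. They are 10 of the 25722 genes listed in the tables, each name matched 1 gene, and all 10 passed the expression filter that left 13842 genes for testing. RNA sequencing was performed on 6 libraries of adherent bone marrow cells from wild-type C57BL/6 mice, with no cytokine added. The study calls these cells bone marrow mesenchymal stromal cells (BMSCs). The 3 control libraries came from cells given DMSO, the solvent, and the 3 RA libraries from cells given all-trans retinoic acid (ATRA). The labels give ATRA as 1 μM for 48 h, whereas the study's methods give a lower dose and a shorter time. The cells of all 6 libraries were grown in low-glucose medium with serum and a ROCK inhibitor, at lowered oxygen as the labels state. The labels do not say whether the libraries came from separate animals, and they mention a pair of replicates while each group has 3 libraries, so the p-values measure only the spread between these libraries, which may be technical.

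MMPs are zinc-dependent proteases that are made as inactive proenzymes and cut collagens and other proteins of the extracellular matrix once their prodomain has been removed. TIMPs bind the active site of MMPs in a complex of equal parts and so hold their activity in check. In bone marrow, stromal cells, osteoblasts and macrophages are all known sources of these enzymes, which take part in matrix turnover and in the movement of cells through the matrix.

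The libraries held between 14737636 and 18511905 counts, and 3 counts corresponded to 0.160 to 0.210 CPM (counts scaled to the TMM-adjusted library size, as edgeR gives them). Cyp26b1, a direct RA target that encodes an RA-degrading enzyme, was higher in every RA library, with a log2 fold change of 4.35 (standard error, SE, 0.19, edgeR adjusted p = 0.00207). Rarb and Dhrs3, a retinoid receptor and a retinaldehyde reductase that also respond to RA, differed by 3.90 and 0.32 on the log2 scale (adjusted p of 0.156 and 0.799 from edgeR). In a principal component analysis of the 1000 genes with the highest variance, the 10 members left out, the leading axis held 57.2% of the variance and followed no treatment. It parted control 2, RA 1 and RA 2 (library set 1) from control 1, control 3 and RA 3 (library set 2). The sets were drawn from the data and match no label, so differences between them are given as descriptions only. The 14 macrophage markers were all tested and summed to between 20398 and 22668.5 CPM in control and between 20167 and 21348 CPM in RA libraries, with Adgre1 (F4/80) between 4463 and 6379 CPM. The 11 mesenchymal stromal markers summed to between 636 and 985 CPM in control and between 723 and 1038 CPM in RA libraries. Among the stromal markers Cxcl12 stood between 368 and 578 CPM, Pdgfrb between 60.3 and 139.9 CPM, Postn between 45.7 and 146 CPM and Prrx1 between 43.1 and 104 CPM, while Thy1 and Nt5e, which failed the filter, reached at most 0.490 and 1.12 CPM. The name BMSC is kept here as the study's name for the culture, and in such bulk samples fewer cells of a type and less RNA per cell cannot be told apart.

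Levels of different genes were compared as CPM per kb of exon. By this measure Timp2, the broad MMP inhibitor, was the most abundant member on average, with 232 ± 17.1 (SD, n = 3) in control and 171.0 ± 13.7 in RA libraries. Timp1 followed with a wide spread, from 39.8 to 299.9 over the 6 libraries. Mmp13, Timp3 and Mmp14 came next, with means over the 6 libraries of 78.6, 60.1 and 52.1 CPM per kb. In the controls alone Mmp13 was the lowest of these 3, with means of 41.4, 66.9 and 59.9 CPM per kb, and in the RA libraries it was the highest, with means of 115.9, 53.3 and 44.3 CPM per kb. The ranges of Timp2, Timp1 and Mmp13 overlapped one another at their neighbours, and those of Mmp13, Timp3 and Mmp14 overlapped throughout, so neighbours in this order were not separated by their spread. Timp2 at its lowest, 155 CPM per kb, still lay above the highest Mmp13, Timp3 and Mmp14 values, 150.8, 91.5 and 75.8 CPM per kb. With the length of the longest transcript in place of all exons, Timp3 and Mmp14 stood above Mmp13. Mmp2, between 25.8 and 45.8 CPM per kb, overlapped Mmp14 above it and was clear of Mmp19 below it. Mmp19 was the steadiest member, between 7.57 and 8.84 CPM per kb. Mmp12 lay between 2.95 and 4.41 CPM per kb, just clear of Mmp3, which reached 2.92. Mmp3 and Mmp8 were the scarcest, overlapped each other and lay near 1 CPM per kb or below in most libraries.

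**Figure D1:**
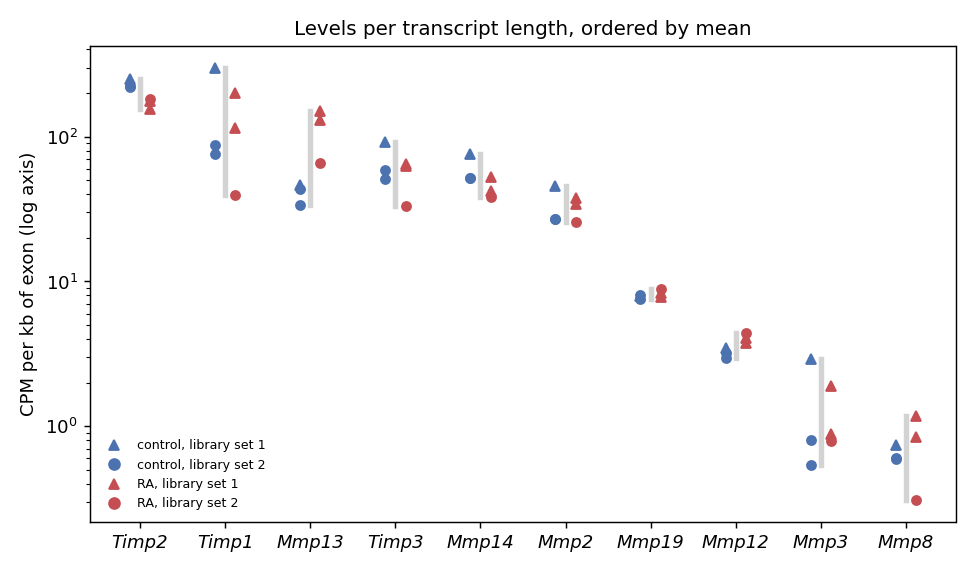
Level of each member in each of the 6 libraries as CPM per kb of exon on a log axis, ordered by the mean, with controls in blue on the left of each grey range bar and RA libraries in red on the right, triangles for library set 1 and circles for set 2. The TIMPs, Mmp13, Mmp14 and Mmp2 stand above Mmp19, Mmp12, Mmp3 and Mmp8, and the bars of Timp1 and Mmp13 are the longest among the abundant genes.

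To ask how RA shifted this protease and inhibitor system, the 3 RA libraries were compared with the 3 controls. In edgeR's quasi-likelihood test over all genes, 0 of the 10 members passed an adjusted p under 0.05 with a change of at least 1.5-fold, where 6 of all 13842 genes (0.0433%) passed, 0.0361% as higher and 0.00722% as lower. With library size alone as the scaling, 6 genes passed as higher and 0 as lower, none of them a member. The members were chosen with earlier results of these data known, so shares of members set beside those of all genes test no excess. At an unadjusted p under 0.05, Mmp13 and Mmp12 were higher and Timp2 was lower, 3 of 10 members against 5.25% of all genes (2.89% higher, 2.36% lower). These were also the members whose RA libraries all lay on one side of all controls, which was the case for 12.6% of all genes (5.71% above, 6.87% below). Within the library sets, 2 members were higher and 5 were lower in each RA library than in any control of the same set, against 18.5% and 23.5% of all genes. DESeq2 and edgeR's likelihood ratio test each called 1 member, Mmp13 as higher, against 0.708% and 0.672% of all genes called as higher (0.983% in either direction with DESeq2). The median log2 fold change was -0.15 over the members and -0.018 over all genes tested. The library set was also used as a covariate in the edgeR fit. As the sets were drawn from these same libraries, p-values of such fits tend to be too small, and their calls are descriptions only. With this covariate 2 members passed, Mmp13 as higher and Timp3 as lower, against 1.54% of all genes (0.744% higher, 0.795% lower). By the adjusted p alone 3 members passed, with Mmp14 as another lower one, against 1.74% of all genes (0.845% higher, 0.896% lower). In that fit the median log2 fold change was -0.33 over the members and -0.0041 over all genes.

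**Figure D2:**
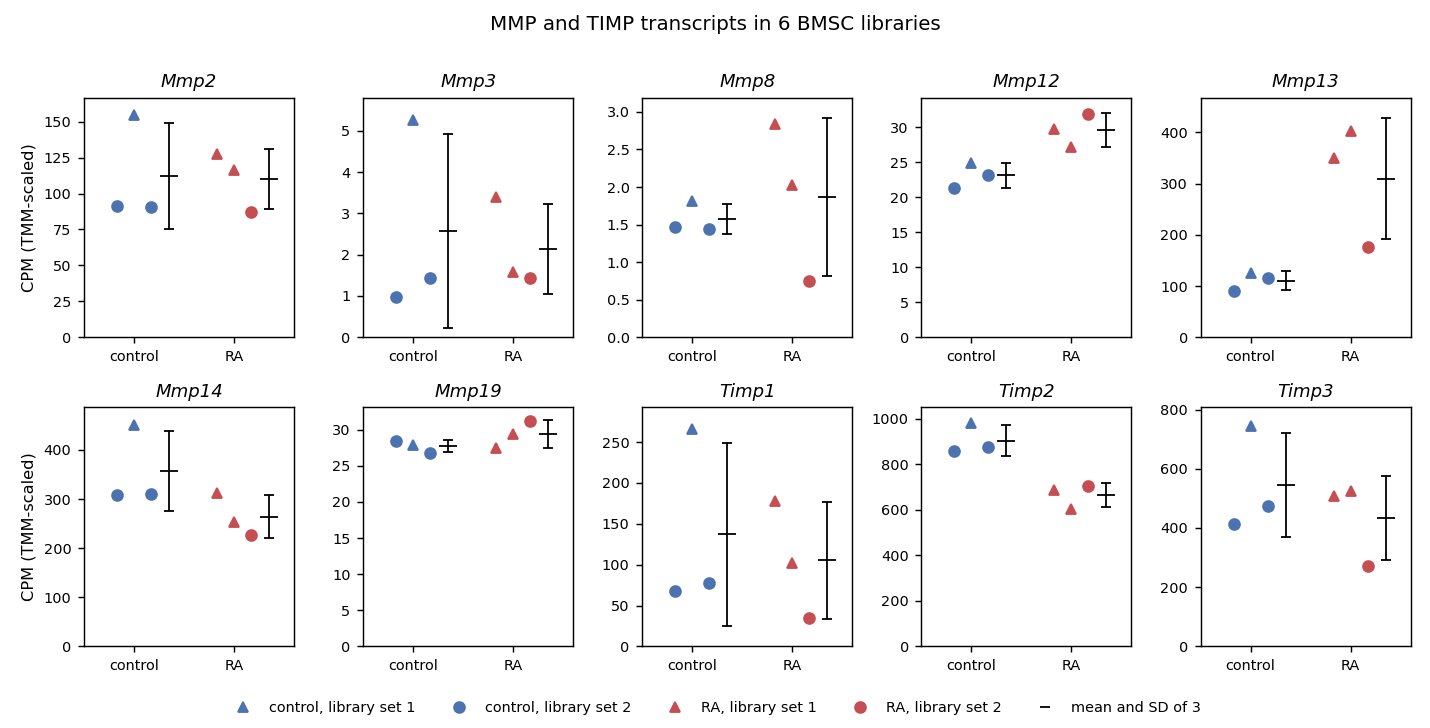
TMM-scaled CPM of the 10 members in the 3 control libraries (blue) and the 3 RA libraries (red), with triangles for library set 1, circles for set 2, and the mean with SD of each group in black, on axes that start at 0. Mmp13 and Mmp12 have no RA library at or below a control and Timp2 has none at or above one, while Timp1, Timp3, Mmp2, Mmp3 and Mmp8 separate triangles from circles.

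**Figure D3:**
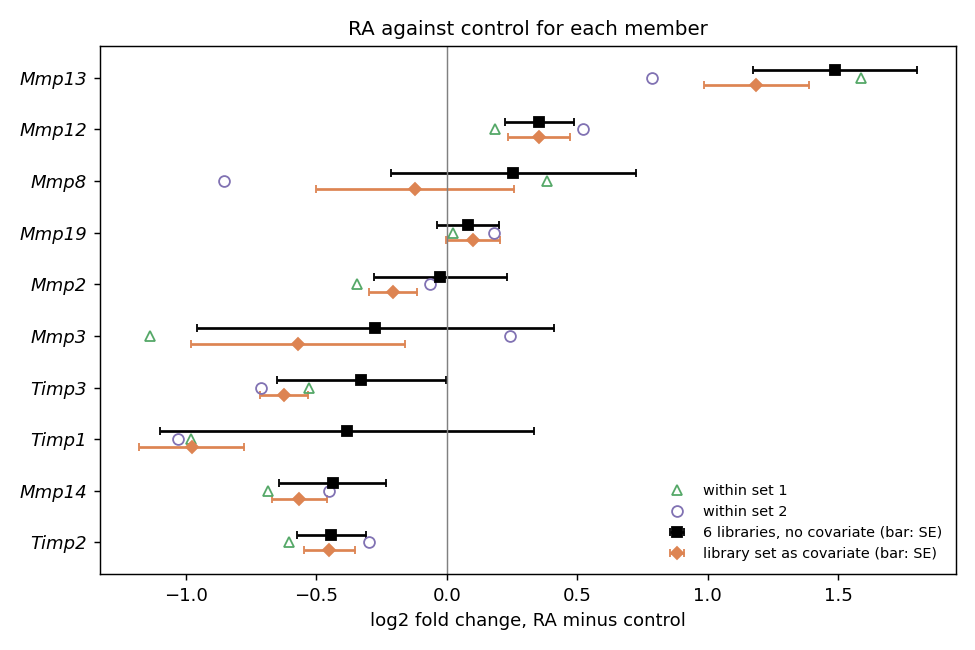
Log2 fold change of RA over control for each member, from the 6 libraries without a covariate (black squares with standard error), with the library set as a covariate (orange diamonds with standard error) and within each set (open symbols). Mmp13, Mmp12 and Mmp19 lie to the right of 0 in all estimates, and Timp1, Timp2, Timp3, Mmp14 and Mmp2 lie to the left in all. The estimates of Mmp3 and Mmp8 fall on both sides.

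Mmp13 (collagenase 3), which cleaves fibrillar collagens, showed the largest difference of the 10 over all 6 libraries. Its levels were 90.4, 124.7 and 116.6 CPM in control 1 to 3 and 349, 403 and 177 CPM in RA 1 to 3. The lowest RA library therefore stood above the highest control, and RA 3 stood well below the other RA libraries. The mean went from 110.6 ± 17.9 to 309.8 ± 118 CPM (SD, n = 3), a log2 fold change of 1.49 (SE 0.31, edgeR adjusted p = 0.353), that is 2.80-fold. The counts behind these values ran from 1291 to 6357, and no other listed gene overlaps Mmp13, so counting error was small beside the spread between libraries. In the other fits the adjusted p was 0.00215 with DESeq2, and the log2 fold change was 1.49 with edgeR's likelihood ratio test (adjusted p = 0.00261) and 1.19 once the library set was a covariate (SE 0.20, edgeR adjusted p = 0.0332). Within set 1 Mmp13 was higher by 1.59 and within set 2 by 0.79 on the log2 scale. In set 2 Timp1 (-1.03) and Mmp8 (-0.85) differed more than Mmp13. The call of the covariate fit was lost without control 1, 2 or 3 (edgeR adjusted p = 0.203, 0.251 and 0.0711), with log2 fold changes of 1.16, 0.79 and 1.32. As control 2 is the only control of set 1 and RA 3 the only RA library of set 2, a covariate fit without either of them compares a lone library with 2 of its own set, and the lone library is assumed to vary like the others. It was 0.0482, 0.00197 and 0.0330 without RA 1, 2 or 3 in the same edgeR fit. Without a covariate, leaving out each library in turn gave log2 fold changes from 1.25 to 1.76. An exact permutation test of 3 libraries against 3 cannot go below p = 0.10 (two-sided), which Mmp13, Mmp12 and Timp2 reached.

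The genes whose pattern over the 6 libraries was most like that of Mmp13, by the root mean square difference of mean-centred log2 CPM, were Lrch2, Cyyr1 and Lmcd1. The difference was 0.139, 0.169 and 0.175, where Mmp13 itself spread by 0.808 around its mean. Lmcd1, for example, stood between 2.31 and 2.45 CPM in the controls and at 9.62, 10.7 and 4.71 CPM in RA 1 to 3. Cyyr1 had only 5 to 28 counts per library. For Timp2 the same measure named Blcap, Prmt2 and Fastk, at 0.0219, 0.0420 and 0.0522, where Timp2 spread by 0.239.

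Mmp8 (collagenase 2), the collagenase best known from neutrophils, was scarce. It had 21, 34 and 21 counts in control 1 to 3 and 51, 32 and 11 counts in RA 1 to 3, or between 0.750 and 2.83 CPM. The RA libraries lay on both sides of the controls. Its log2 fold change was 0.25 (SE 0.47, edgeR adjusted p = 0.896), with 0.39 within set 1 and -0.85 within set 2, so no difference was detected. The neutrophil markers were scarce too, since the 5 of 8 that had a row summed to between 3.03 and 4.41 CPM in every library.

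Mmp12 (macrophage elastase) was low but even across the libraries. It stood at 21.4, 24.9 and 23.1 CPM in control 1 to 3 and at 29.7, 27.1 and 31.9 CPM in RA 1 to 3. Every RA library was above every control, by a small margin. Its difference on the log2 scale was 0.35 (SE 0.13, unadjusted p = 0.0330, edgeR adjusted p = 0.795), or 1.28-fold, and it was the same with the library set as a covariate (edgeR adjusted p = 0.249). Within the sets it was 0.19 and 0.52. Of the 14 macrophage markers, 1 lay above every control in each RA library and 0 lay below, against 5.71% and 6.87% of all genes. This was Itgam (CD11b), named after its values were seen, at 1417, 1429 and 1447 CPM in control 1 to 3 and at 1732, 1809 and 1513 CPM in RA 1 to 3, while the summed macrophage markers overlapped between the groups. Their part in the level of Mmp12 was not tested.

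Mmp3 (stromelysin 1), which cleaves proteoglycans and activates other proMMPs, had 14, 99 and 21 counts in control 1 to 3 and 61, 25 and 21 counts in RA 1 to 3. Control 2 alone, at 5.27 CPM, stood above all RA libraries, while the other controls stood at 0.981 and 1.44 CPM against 1.43 to 3.39 CPM after RA. Over all libraries its log2 fold change was -0.27 (SE 0.68, edgeR adjusted p = 0.926) and turned to 0.83 without control 2.

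Mmp14 (MT1-MMP) is anchored in the cell membrane, where with Timp2 it activates proMMP2. It stood at 309, 452 and 311 CPM in control 1 to 3 and at 313, 253 and 227 CPM in RA 1 to 3. The level in RA 1 lay just above control 1 and control 3, so the groups overlapped, but each RA library lay below every control of its own set, as did 23.5% of all genes. The log2 fold change was -0.44 (SE 0.20, edgeR adjusted p = 0.795) and -0.56 in the covariate fit (SE 0.10, edgeR adjusted p = 0.0484), which stayed short of the 1.5-fold limit. With each library left out of that edgeR fit, the adjusted p was 0.000883 without RA 2 and between 0.0589 and 0.694 otherwise, and the log2 fold change ran from -0.68 to -0.44. Within the sets it was -0.68 and -0.45.

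Mmp2 (gelatinase A), which degrades denatured collagen and basement membrane collagen, showed little difference between the groups. It stood at 91.0, 154.5 and 90.6 CPM in control 1 to 3 and at 127.6, 116.3 and 86.9 CPM in RA 1 to 3. The set 1 libraries were the high ones in both groups. Between the groups Mmp2 differed on the log2 scale by -0.024 (SE 0.26, edgeR adjusted p = 0.985) and 0.29 without control 2, and within the sets it was -0.34 and -0.065.

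Mmp19 varied least of all members, by 1.17-fold between its lowest and its highest library. It stood between 26.7 and 28.4 CPM in control and at 27.4, 29.4 and 31.2 CPM in RA 1 to 3, so the groups overlapped. The log2 fold change was 0.082 (SE 0.12, edgeR adjusted p = 0.862). Mmp19 overlaps the opposite-strand genes Tmem198b over 789 bases and Gm47093 over 9915 bases, the latter with at most 2 counts. Since the strand setting of the counting is not given in the sources used here, reads of such stretches cannot be assigned.

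Among the inhibitors, Timp2 gave the most even difference. It stood at 858, 981 and 875 CPM in control 1 to 3 and at 688, 605 and 705 CPM in RA 1 to 3. Every RA library was below every control, and the spread within each group was smaller than the gap between the means. The mean went from 905 ± 66.7 to 666 ± 53.5 CPM (SD, n = 3), a log2 fold change of -0.44 (SE 0.13, unadjusted p = 0.0132, edgeR adjusted p = 0.741). The adjusted p was 0.0821 with DESeq2 and 0.0845 in edgeR with the library set as a covariate, and within the sets the log2 fold change was -0.60 and -0.30. Timp2 shares 10141 bases with the gene Cep295nl on the same strand, which had at most 57 counts.

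Timp3, an inhibitor that stays bound to the matrix and also blocks ADAM and ADAMTS proteases, stood at 415, 745 and 476 CPM in control 1 to 3 and at 509, 523 and 271 CPM in RA 1 to 3. The pooled groups overlapped widely, with control 2 as the highest and RA 3 as the lowest library. The log2 fold change was -0.33 (SE 0.32, edgeR adjusted p = 0.818). With the library set as a covariate it was -0.62 (SE 0.091, edgeR adjusted p = 0.0216), and Timp3 was lower by 0.53 within set 1 and by 0.71 within set 2 on the log2 scale. That call was lost without control 1, 2 or 3 or RA 3 (edgeR adjusted p = 0.113, 0.185, 0.0994 and 0.165), where the log2 fold change was -0.65, -0.70, -0.57 and -0.53, and held without RA 1 or RA 2 (0.0482 and 0.000869 with edgeR). Timp3 lies inside Syn3 on the opposite strand, for which at most 40 counts were listed.

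Timp1, the inducible and soluble inhibitor, varied most of all members, by 7.54-fold over the 6 libraries. It stood at 67.2, 266 and 77.6 CPM in control 1 to 3 and at 178, 102.5 and 35.3 CPM in RA 1 to 3. The 3 libraries of set 1 were above the 3 of set 2, and within each set the RA libraries were below the controls. The log2 fold change over all libraries was -0.38 (SE 0.71, edgeR adjusted p = 0.898), and it was 0.55 without control 2. Within the sets it was -0.98 and -1.03, while the covariate fit gave -0.98 (SE 0.20, edgeR adjusted p = 0.0697), which was not called, although it was without RA 1 or RA 2 (0.00746 and 0.00167 with edgeR). Timp1 lies inside Syn1 on the opposite strand, which had 857 to 1354 counts, so a share of reads may belong to either gene.

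Several members stood apart by library set. In Mmp2, Mmp3, Mmp8, Timp1 and Timp3 all 3 libraries of set 1 lay above all 3 of set 2, 5 of 10 members, where 23.4% of all genes did so and 24.4% lay the other way. The gap between the sets was 1.88 (log2) among the controls and 1.93 among the RA libraries for Timp1, and 2.03 and 0.65 for the scarce Mmp3. For Timp3 it was 0.75 and 0.93, and for Mmp2 0.77 and 0.49. The gap of Timp2 was 0.18 among the controls and -0.13 among the RA libraries, and that of Mmp19 was 0.018 and -0.14. The summed stromal markers stood apart in the same way, at 985, 1038 and 935 CPM in control 2, RA 1 and RA 2 against 636, 715 and 723 CPM in control 1, control 3 and RA 3. Of the 11 stromal markers, 7 were higher in all set 1 libraries than in all set 2 libraries and 0 were lower. Of the 14 macrophage markers, 3 were higher in this way (Lyz2, Cx3cr1 and Fcgr1) and 9 were lower, so that their flat sum hides a split by set. C1qc, for example, stood at 818, 843 and 861 CPM in control 2, RA 1 and RA 2 and at 1703, 1718 and 1599 CPM in control 1, control 3 and RA 3. The part of these cell type markers in the levels of the MMPs and TIMPs was not tested.

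The balance of the members was described without Mmp9, which is not a member and averaged 86.5 CPM in control and 228 CPM in RA libraries. The measure was the summed CPM per kb of the 7 MMPs over that of the 3 TIMPs. This ratio was 0.360, 0.285 and 0.364 in control 1 to 3 and 0.537, 0.721 and 0.569 in RA 1 to 3. All RA libraries were above all controls, with means of 0.609 ± 0.0984 and 0.336 ± 0.0445 (SD, n = 3). Mmp13 made up between 25.5% and 32.4% of the MMP sum in the controls and between 45.9% and 62.4% in the RA libraries. Without Mmp13 the ratio ran from 0.212 to 0.262 in the controls and from 0.239 to 0.308 in the RA libraries, so that the groups overlapped, although each RA library stayed above the controls in its set (0.239 and 0.271 against 0.212 in set 1, and 0.308 against 0.262 and 0.246 in set 2). With the longest transcript as the length, the ratio ran from 0.351 to 0.438 in control and from 0.579 to 0.726 in RA libraries. As the members were chosen with results known, no test was run on this ratio, and transcript sums do not measure active enzyme.

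**Figure D4:**
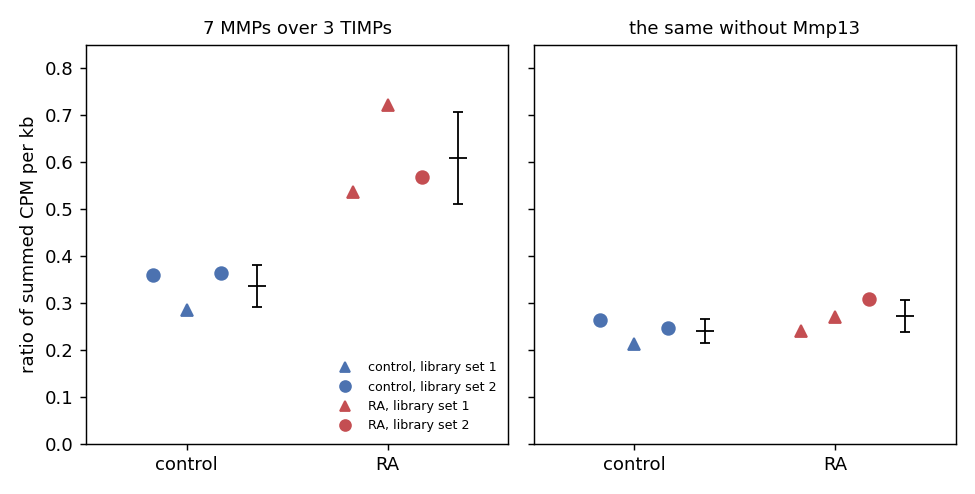
Ratio of the summed CPM per kb of the 7 MMP members to that of the 3 TIMP members in each library, with all MMPs (left) and without Mmp13 (right), controls in blue and RA in red, triangles for library set 1 and circles for set 2, and mean with SD in black. The RA libraries stand between 0.537 and 0.721, above all controls, and overlap the controls once Mmp13 is left out.

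Mmp13, Mmp12, Mmp3 and Mmp8 lie in 1 cluster of MMP genes on chromosome 9 of GRCm38, all on the plus strand, with Mmp13 from 7272514 to 7283331, Mmp12 from 7344381 to 7369499, Mmp3 from 7445822 to 7455975 and Mmp8 from 7558456 to 7568485. Mmp10 and Mmp27, which are not members, lie in the same stretch of 309 kb and were tested. Of these 6 neighbours, Mmp13 at one end had the largest log2 fold change at 1.49 and Mmp12, whose start lies 71.9 kb further on, had 0.35. Mmp3, Mmp10, Mmp8 and Mmp27 had log2 fold changes of -0.27, -0.33, 0.25 and 0.054, with standard errors of 0.68, 0.55, 0.47 and 0.39 and no more than 5.27 CPM in any library. The remaining members lie outside this cluster. Mmp2 lies on chromosome 8 from 92827291 to 92853420, Mmp14 on chromosome 14 from 54431612 to 54445364 and Mmp19 on chromosome 10 from 128790910 to 128800824. Timp1 lies on chromosome X from 20870166 to 20874735, Timp2 on chromosome 11 from 118301069 to 118355740 and Timp3 on chromosome 10 from 86300372 to 86349506.

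**Figure D5:**
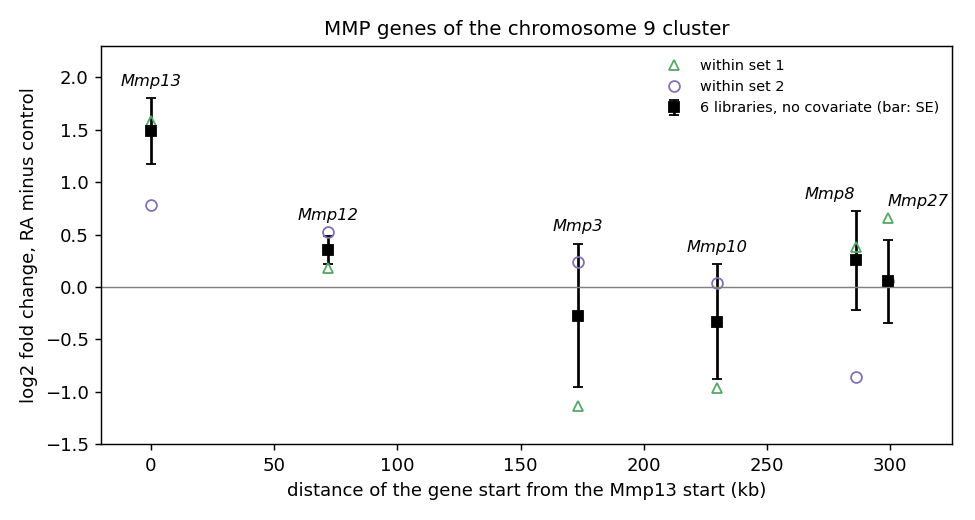
Log2 fold change of RA over control for the 6 tested MMP genes of the chromosome 9 cluster against the distance of each gene start from that of Mmp13 in kb, from all 6 libraries (black squares with standard error) and within each library set (open symbols). Mmp13 at 1.49 stands above its neighbours, and the estimates of Mmp3, Mmp10 and Mmp8 within the sets differ in sign.

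The promoters of the cluster are shown because Mmp13 differed most between the groups while its neighbours lie in the same locus. RefSeq promoter windows (GRCm38.p6, 250 bases before to 50 after a gene start) were found by symbol for 8 of the 10 members, Mmp2 and Mmp19 having no entry, and Mmp12 had an additional start, which gave 9 windows. The 100 bases before the start are given 5′ to 3′ on the plus strand, with each match to the AP-1 motif TGANTCA in capitals. AP-1 is the Fos and Jun dimer through which many MMP genes are known to be induced.
Mmp13, chr9:7272414-7272513: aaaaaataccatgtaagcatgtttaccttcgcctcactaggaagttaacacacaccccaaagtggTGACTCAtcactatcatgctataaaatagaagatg
Mmp12 (downstream start), chr9:7347274-7347373: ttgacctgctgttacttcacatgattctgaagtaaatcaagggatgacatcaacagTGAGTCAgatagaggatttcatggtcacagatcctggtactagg
Mmp3, chr9:7445722-7445821: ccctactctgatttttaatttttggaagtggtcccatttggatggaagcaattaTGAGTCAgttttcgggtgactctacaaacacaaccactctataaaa
Mmp8, chr9:7558329-7558428: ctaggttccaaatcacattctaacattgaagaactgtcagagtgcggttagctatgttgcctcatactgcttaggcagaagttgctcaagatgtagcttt

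Searched on both strands, TGANTCA occurred in the windows of Mmp13, Mmp12 and Mmp3, starting 35, 44 and 46 bases before the RefSeq start of the window, which for Mmp12 is the downstream start, inside the gene as given above, and in 7.81% of all 32851 windows. The upstream start of Mmp12 and the window of Mmp8 held none. The letters TATAAA occurred in the windows of Mmp13, Mmp12, Mmp3 and Mmp8 and in 13.6% of all windows. The GC box GGGCGG, a motif common in promoters without a TATA box, occurred in those of Mmp14, Timp1, Timp2 and Timp3 and in 35.7% of all. The core motif of retinoic acid receptors, AGGTCA, occurred in 1 member window, at the downstream start of Mmp12, and in 16.3% of all, and its direct repeat with a spacer of 5 bases in 0 member windows and in 0.00913% of all. The motifs do not overlap one another in the printed windows, and these matches are letters in a window, not measured binding sites.

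Of the 17 other MMP and TIMP genes looked up, 13 had a row in the tables and 9 passed the filter. In the edgeR quasi-likelihood test 0 of the 9 were called, and 2 had an unadjusted p under 0.05, Mmp9 as higher and Mmp16 as lower (2.89% and 2.36% of all genes). Mmp9 (gelatinase B), the type IV collagenase of macrophages and osteoclasts, was the most abundant of them. It stood at 60.7, 146 and 52.3 CPM in control 1 to 3 and at 326, 265 and 94.2 CPM in RA 1 to 3, with the RA libraries above the controls of their own set but RA 3 below control 2. Its log2 fold change was 1.40 (SE 0.56, edgeR adjusted p = 0.795), with 1.00 within set 1 and 0.74 within set 2. In the covariate fit it was 0.88 (SE 0.12, edgeR adjusted p = 0.0167), the only call of this list there, where 0.744% of all genes were called as higher. That call held without RA 1 or RA 2 (0.0146 and 0.000444 with edgeR) and was lost without any 1 of the 3 controls or RA 3, fits in which the genes called fell from 213 to between 36 and 62. Mmp23, next in abundance, had a log2 fold change of -0.50 and Mmp16, a membrane-type MMP with 30 to 103 counts, had -0.79 (standard errors 0.31 and 0.30, edgeR adjusted p = 0.795 for both). The median of the 9 genes was -0.036.

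Of 16 genes that activate, inhibit or clear MMPs, 14 were tested and 0 were called, with 0 at an unadjusted p under 0.05 in the edgeR quasi-likelihood test and 0 with DESeq2. Their median log2 fold change was -0.24. The most abundant were Lrp1, an endocytic receptor that clears MMPs and their complexes, and Thbs1 (thrombospondin 1). Lrp1 had a log2 fold change of -0.23 (SE 0.20) and Thbs1 of -0.45 (SE 0.36), from 1634 ± 638 to 1199 ± 409 CPM (SD, n = 3). With the library set as a covariate 3 of the 14 passed, all as lower, where 0.795% of all genes did. Among them were Thbs1 (log2 fold change -0.74) and Serpinb2 (-1.92), with edgeR adjusted p of 0.0167 and 0.0278. Without any 1 of the 3 controls or RA 3 the list had 0 calls in that fit, Thbs1 was called without RA 1 or RA 2, and Serpinb2 was called without RA 2 but not without RA 1. Serpinb2 encodes an inhibitor of plasminogen activation, a step upstream of proMMPs, had 7 to 104 counts per library and was named after its values were seen.

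Of 8 matrix substrate genes, 7 were tested and 0 were called by edgeR, and 3 had an unadjusted p under 0.05, against 5.25% of all genes. Spp1 (osteopontin) was higher, from 303 ± 72.7 to 432 ± 13.9 CPM (SD, n = 3), a log2 fold change of 0.51 (unadjusted p = 0.0285, edgeR adjusted p = 0.795). The proteoglycan decorin, Dcn, at no more than 5.01 CPM, had a log2 fold change of 0.52 (edgeR adjusted p = 0.795). The RA libraries lay above all controls for both, as for 5.71% of all genes. The proteoglycan versican, Vcan, was lower, at 62.1, 157.6 and 83.1 CPM in control 1 to 3 against 57.7, 56.4 and 33.2 CPM in RA 1 to 3, a log2 fold change of -1.04 (unadjusted p = 0.0314, edgeR adjusted p = 0.795) that became -1.31 with the library set as a covariate (edgeR adjusted p = 0.00621), the only call among the substrates in that fit, against 0.795% of all genes called as lower. That call was lost without control 2 and held without each of the other libraries. Within the sets the log2 fold change of Vcan was -1.46 and -1.11. Fn1 and Col1a1, the most abundant substrates, differed by -0.21 and -0.58 on the log2 scale (adjusted p of 0.892 and 0.803 from edgeR). In the covariate fit they differed by -0.51 and -0.91 (adjusted p of 0.0290 and 0.138 from edgeR), Fn1 staying short of the 1.5-fold limit, and Col1a1 was called there without RA 1 or RA 2. The median of the 7 genes was -0.41, and -0.68 in the covariate fit.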

How the data were processed

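RNA of BMSCs was sequenced as 3 control and 3 RA libraries. The authors deposited, per the labels' processing notes, raw counts of reads per gene made with genome build mm10 and Bowtie2 2.2.3. The counting program, annotation and strand setting are not given in the sources used here. Groups and replicate numbers came from the sample titles. Coordinates and lengths came from GENCODE M21 (GRCm38). In R 4.3.3, edgeR 4.0.16 was used with TMM scaling, filterByExpr and the quasi-likelihood F test of RA against control without covariates. A call needed a change of at least 1.5-fold and an adjusted p (Benjamini-Hochberg, over all 13842 genes tested) under 0.05. Each standard error was the log2 fold change divided by the root of F, and log2 CPM used a prior count of 2. The fit was tested on simulated data with known changes: their size was recovered, but at the spread of these libraries the smaller ones were not called. Alternatives were DESeq2 1.42.0, the likelihood ratio test, other scalings and filters, the replicate block, the library set as a covariate and leaving out libraries. The last 2 together were added after seeing the data. The members, lists and library sets were chosen with earlier results of these data known. Named genes were all members, list genes that were called, had an unadjusted p under 0.05 or were the 2 most abundant of a list, and the 3 genes nearest in pattern to the 2 members with the largest fold change. Marker lists for osteoclasts, osteoblasts and endothelial cells were looked at too. Counts of same-group libraries differed by more than sampling noise (chi-square over its degrees of freedom 4.81 for control 1 and 3 and 30.2 to 91.7 for the other pairs), so none were merged, which does not show that they are separate cultures. Totals of 14737636 to 18511905 counts leave little counting error except for genes near the floor of 3 counts, and such errors cover counting only. A gene of the activator, inhibitor and clearance list is counted there but its values are not reported here.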

Additional observations from a re-analysis of the deposited data

How the results depend on the processing

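Over 21 other settings, 184 of the 210 values for the members kept their direction and their side of the threshold, 11 gained a call and 15 changed sign. Genes called went from 6 to 136 (98 up, 38 down) with DESeq2, 134 with the likelihood ratio test, 20 without a filter, 213 with the library set as a covariate and 491 at an unadjusted p with the 1.5-fold limit kept (the 5.25% of genes and 3 members given above had no such limit). They ran from 0 to 6 with each library left out, and with the covariate as well they were 36, 55 and 50 without control 1, 2 and 3 and 192, 420 and 62 without RA 1, 2 and 3. Members called went from 0 to 1 with DESeq2, the likelihood ratio test or an unadjusted p with that limit and to 2 with the covariate, and ran from 0 to 0 and from 0 to 3 when libraries were left out. With the covariate and at an unadjusted p, the fold limit kept in both, the other MMP and TIMP genes gave 1 and 2 calls and the substrates 1 and 1, and the activators, inhibitors and clearance genes gave 3 with the covariate. With the covariate and each library left out these lists ran from 0 to 2, 0 to 4 and 0 to 4.

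Mmp2 had a log2 fold change of 0.016 with library size alone and 0.0043 with the replicate block, and Mmp8 of -0.12 with the covariate. Leaving out each library, Mmp2 ran from -0.16 to 0.29, Mmp3 from -0.76 to 0.83, Mmp8 from -0.15 to 0.62 and Timp1 from -0.97 to 0.55. The sign turned without control 2 (Mmp2, Mmp3, Timp1), RA 3 (Mmp2, Timp1) or RA 1 (Mmp8). With the covariate too, Mmp3 ran from -1.07 to 0.25 (turned without control 2), and Mmp8 was -0.057, -0.94 and -0.066 without control 1, 2 and 3, -0.34 and -0.033 without RA 1 and 2, and 0.43 without RA 3. For all of these the cause was not tested. Library size alone made 6 genes higher and 0 lower, against 5 and 1. With the replicate block 4 genes were higher and 0 lower, and 0 members were called. Libraries with the same number were compared by how their genes deviate from the group mean, which gave correlations of -0.51, 0.343 and 0.572. Pairs whose numbers differ averaged -0.0934. Control 1 and RA 1, with the negative value, fall in different library sets, while the pairs numbered 2 and 3 each share a set. These correlations cannot tell a pairing by number from the split by set, so whether the numbers pair the libraries was not settled. Mmp3 and Mmp8 had the lowest counts of the members.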

Other observations

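Of the other cell types looked at, 6 osteoclast markers summed to between 41.6 and 46.1 CPM in the controls and between 28.6 and 38.3 CPM in the RA libraries, although 0 of the 6 lay below every control in each RA library. Within that sum Acp5, which encodes the tartrate-resistant acid phosphatase, stood between 10.7 and 29.3 CPM and Calcr, the calcitonin receptor, had at most 1 count per library. Osteoblast markers summed to between 62.6 and 86.6 CPM in the controls and between 45.4 and 80.1 CPM in the RA libraries. Of these 6 markers, 2 (Ibsp and Runx2) lay below every control in each RA library and 0 lay above, against 6.87% and 5.71% of all genes. Endothelial markers summed to between 6.65 and 16.0 CPM in the controls and between 9.78 and 16.9 CPM in the RA libraries. Of the 11 stromal markers, 2 (Lepr and Cxcl12) lay above every control in each RA library and 1 (Ly6a) lay below, against 5.71% and 6.87% of all genes. Lepr, the leptin receptor, stood between 0.479 and 0.490 CPM in the controls and at 2.50, 3.04 and 9.48 CPM in RA 1 to 3. Ly6a, which encodes Sca-1, stood at 34.6, 34.1 and 39.5 CPM in the controls and at 20.3, 19.8 and 17.9 CPM in RA 1 to 3. These values were picked out after they were seen, and no test was run on the sums.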
